A study of Mus musculus with 24 samples.

Results

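Long SPT5 domains were stretches of chromatin of 8 kb or more that were called as 1 broad region in SPT5. A domain was a row of the SPT5 replicate 2 peak list on chromosomes 1 to 19 of at least 8000 bp that overlapped by at least 1 bp a row of at least 8000 bp in SPT5 replicate 1. Chromosome 14 beyond 95 Mb was left out. The rule found 783 domains among the 131619 rows of replicate 2, or 0.595% of them. The members were selected on their measured length and overlap in the 2 SPT5 lists, so those values are a description and were not tested.

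The data are chromatin immunoprecipitation and sequencing (ChIP-seq) of E14 cells, a mouse embryonic stem cell line, grown in serum and LIF. Every group used here carries the genotype labelled Nelfb deg and is labelled as a control treatment, where the protocol gives DMSO or dTAG-13 in the medium. The groups are NELFB:HA (antibody HA-Tag CST (C29F4)), NELFE (antibody Anti-NELFe abcam (ab170104)) and SPT5 (antibody Anti-DSIF BD (BD611106)), with 2 libraries each. Of the 24 samples listed, these 6 were analysed and the other 18, the dTAG-13, naïve, EpiLC and input samples among them, were not analysed here. No label says whether libraries came from separate cultures or from 1 clone, so p-values measure only the spread between these samples, which may be technical.

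SPT5 is a subunit of DSIF, a factor that binds RNA polymerase II soon after initiation and travels with it along the gene. NELF is a complex that joins DSIF and the polymerase in the promoter-proximal pause and leaves when the kinase P-TEFb releases the polymerase into elongation. NELFB and NELFE are subunits of NELF, so their position in an SPT5 domain can be set beside the stretch that DSIF occupies.

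The libraries held between 27324697 and 62312558 filtered tags, per the file headers. The SPT5 libraries had tags of 100 and 101 bp and shared an input size of 50899697 tags, and the NELF libraries had 50 bp tags and inputs of other sizes. The antibody and this difference between the SPT5 and NELF libraries cannot be told apart. Of 7 embryonic stem cell markers, 5 (Esrrb, Nanog, Sox2, Tdgf1 and Zfp42) lay under a domain. Of 6 fibroblast markers 0 did, too few to stand apart from the 5.22% of all protein-coding genes. A NELF row whose deposited q-value was at most 0.01 lay in 6 and 5 of the 7 stem cell markers for NELFB:HA, and in 7 and 6 for NELFE. Of the 6 fibroblast markers, 0 held such a row in any library. The row could lie anywhere in the gene, and the share of all genes holding one was not counted. By an unlike measure, 44.2% of protein-coding genes with a listed start had a NELFE row within 1000 bp of it in both libraries. Rows of the NELF libraries with a q-value of at most 0.01 are called NELF rows in what follows. A fold is the authors' enrichment of a row over the local input background.

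The promoter sequences of 6 domain genes are shown. At 5 of them NELF sat near the start while SPT5 ran on for kilobases, and Nanog is the contrast. Each is the 250 bases before the annotated start, 5′ to 3′ on the gene's strand, from RefSeq on GRCm38.p6 (mm10). Capitals mark GGGCGG, the GC box bound by SP1-type factors, or TATAAA, the TATA box, on either strand (CCGCCC and TTTATA when reversed). Dhx9 encodes an RNA helicase and Pcna the sliding clamp of DNA replication. Prdx1 encodes a peroxiredoxin, Hnrnpk an RNA-binding protein, Trim28 a corepressor of transposons and Nanog a pluripotency transcription factor. Their windows are chr1:153487661-153487910 (minus), chr2:132253181-132253430 (minus), chr4:116685349-116685598 (plus), chr13:58402118-58402367 (minus), chr7:13023902-13024151 (plus) and chr6:122707239-122707488 (plus).
Dhx9: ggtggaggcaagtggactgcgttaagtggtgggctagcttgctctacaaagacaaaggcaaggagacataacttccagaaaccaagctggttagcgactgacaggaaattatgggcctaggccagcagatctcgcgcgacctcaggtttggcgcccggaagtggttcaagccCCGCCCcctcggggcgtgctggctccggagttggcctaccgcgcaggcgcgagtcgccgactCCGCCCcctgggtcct
Pcna: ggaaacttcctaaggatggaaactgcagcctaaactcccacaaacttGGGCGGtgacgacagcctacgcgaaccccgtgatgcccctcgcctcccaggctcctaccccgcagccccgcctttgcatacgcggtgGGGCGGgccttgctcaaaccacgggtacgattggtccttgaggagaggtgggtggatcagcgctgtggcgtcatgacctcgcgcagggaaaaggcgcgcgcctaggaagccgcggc
Prdx1: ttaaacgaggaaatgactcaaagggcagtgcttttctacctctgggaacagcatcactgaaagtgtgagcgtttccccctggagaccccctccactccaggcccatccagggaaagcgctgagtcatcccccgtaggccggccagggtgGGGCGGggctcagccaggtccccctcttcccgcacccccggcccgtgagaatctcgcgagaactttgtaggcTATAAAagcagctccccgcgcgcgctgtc
Hnrnpk: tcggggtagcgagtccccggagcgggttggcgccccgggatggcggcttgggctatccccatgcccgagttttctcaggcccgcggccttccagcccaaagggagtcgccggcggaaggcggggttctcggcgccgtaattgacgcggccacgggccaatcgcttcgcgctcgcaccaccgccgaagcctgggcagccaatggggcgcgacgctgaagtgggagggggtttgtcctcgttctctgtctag
Trim28: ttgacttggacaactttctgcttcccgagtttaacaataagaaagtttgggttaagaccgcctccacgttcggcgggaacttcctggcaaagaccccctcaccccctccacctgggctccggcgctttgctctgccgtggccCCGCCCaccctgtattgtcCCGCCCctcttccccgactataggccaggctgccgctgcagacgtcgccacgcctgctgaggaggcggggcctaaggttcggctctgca
Nanog: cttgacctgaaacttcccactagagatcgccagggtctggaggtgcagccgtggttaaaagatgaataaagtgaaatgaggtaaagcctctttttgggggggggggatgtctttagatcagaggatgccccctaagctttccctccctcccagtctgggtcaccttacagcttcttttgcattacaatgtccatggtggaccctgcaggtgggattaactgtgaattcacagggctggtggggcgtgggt
Dhx9, Pcna and Trim28 held 2 GC boxes each, and Prdx1 held 1 GC box and 1 TATA box. Hnrnpk held neither motif but had the highest CpG count of the 6, at 30. Nanog held neither motif and 3 CpGs.

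Those promoters were CpG-rich as a group, with Nanog as an exception. Over the 578 protein-coding genes whose listed start lay in a domain, the median window had 62.4% G or C and 19 CpGs. The 6707 genes with a NELFE row at the start in both libraries but outside a domain had 61.2% and 18, and all 16400 listed starts had 55.6% and 10. GGGCGG on either strand was present in 65.7% of domain starts, 64.0% of NELFE starts outside domains and 43.5% of all starts. TATAAA on either strand was present in 6.40%, 5.53% and 12.5%. CCAAT was present in 39.1%, 37.7% and 36.2%. In base composition, GC boxes and TATA boxes the domain starts lay nearer to other NELFE-bound starts than to all starts, and CCAAT differed little among the 3 sets. A match is a description of the letters in the window.

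The domains were broad but modest in enrichment. Their length in replicate 2 ranged from 8000 to 89361 bp with a median of 12315 bp, and 223 were under 10000 bp, 122 were 20000 bp or more and 14 were 40000 bp or more. The longest overlapping row of replicate 1 had a median of 12868 bp and a range of 8014 to 53686 bp. Together the domains covered 11.5 Mb, of which 84.8% lay in a long row of replicate 1 and 92.6% in a row of any length. The median SPT5 fold was 2.58 in replicate 2 and 2.74 in replicate 1. A deposited SPT5 q-value of 0.01 or less was found for 553 domains in replicate 2, for 520 in replicate 1 and for 487 in both. Every chromosome from 1 to 19 held between 23 and 74 domains. A further 370 rows of 8000 bp or more in replicate 2 had no such partner in replicate 1 and are no members.

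At the threshold, the 3 shortest members measured 8000, 8020 and 8026 bp, with SPT5 folds of 3.0, 1.79 and 2.90. The 3 longest rows under it measured 7995, 7991 and 7988 bp, with folds of 1.93, 2.98 and 1.80. Rows with and without NELF stood on both sides: the members of 8000 and 8026 bp held 1 NELF row in each of the 4 NELF libraries and the member of 8020 bp held 0. Just outside, the row of 7991 bp held 1 in each library and the rows of 7995 and 7988 bp held 0.

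**Figure D1:**
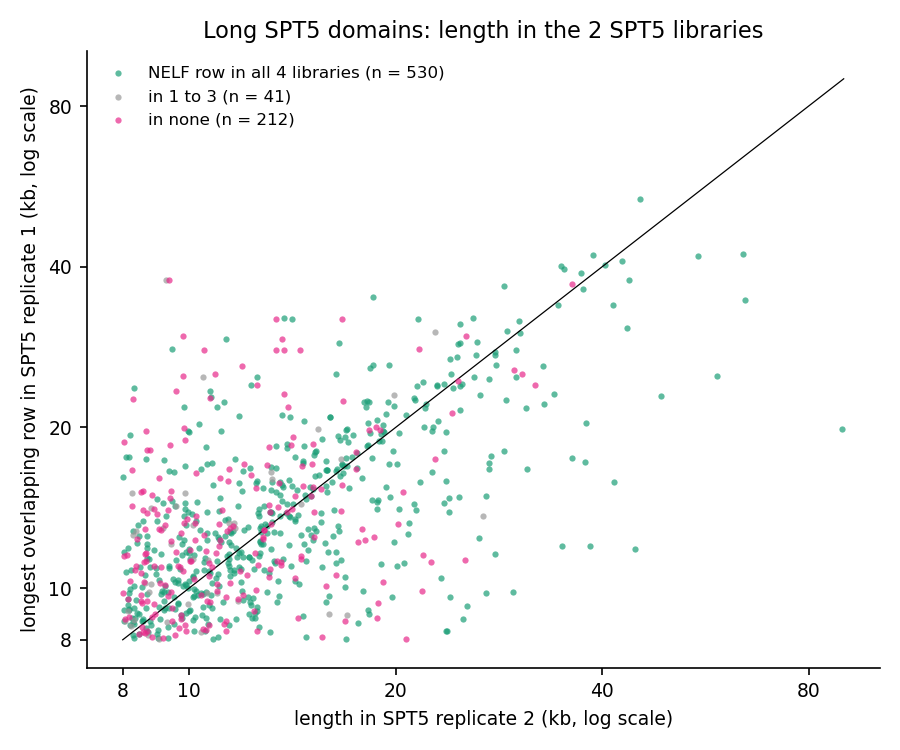
Length of each of the 783 domains in SPT5 replicate 2 (x axis, kb, log scale) against the longest overlapping row of replicate 1 (y axis, kb, log scale), with the line of equal length. Colour gives whether a NELF row lay in the domain in all 4 NELF libraries (530 domains), in 1 to 3 (41) or in none (212); domains without NELF reach beyond 20 kb but most lie at the short end.

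Most domains held NELF, usually as 1 row. NELFE rows were found in 556 domains (71.0%, Wilson 95% interval 67.7 to 74.1) in replicate 1 and in 560 (71.5%, 68.3 to 74.6) in replicate 2. NELFB:HA rows were found in 548 (70.0%, 66.7 to 73.1) and in 535 (68.3%, 65.0 to 71.5). These intervals cover the number of domains only. Over all rows of SPT5 replicate 2 the corresponding shares were 8.19% and 8.64% for NELFE and 7.74% and 6.54% for NELFB:HA. In NELFE replicate 1, 423 domains held 1 row, 122 held 2 and 11 held 3 or more, and in replicate 2 the counts were 431, 121 and 8. In NELFB:HA the counts were 433, 108 and 7 in replicate 1 and 440, 90 and 5 in replicate 2. The 4 libraries marked largely the same domains: 530 held a row in all 4, 212 in none and 41 in 1 to 3.

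NELF filled only a small part of a domain. NELFE rows covered 18.2% and 19.7% of the summed domain length and NELFB:HA rows 19% and 19.3%, against between 0.891% and 1.01% of chromosomes 1 to 19 in the 4 libraries. The strongest NELF row of a domain had a median width of 2913.5 and 3082.5 bp for NELFE and 3268 and 3639 bp for NELFB:HA. Its median fold was 7.31 and 7.68 for NELFE and 6.41 and 5.30 for NELFB:HA, higher in each library than the median SPT5 fold of the domains around it. A fold is a mean over its row, and the SPT5 rows are longer and come from another antibody and input. The NELF and SPT5 folds are therefore not on one scale. The strongest rows of any pair of NELF libraries overlapped in 97.4% to 98.3% of the domains where both had a row, and their midpoints lay a median of 393.25 to 524 bp apart. Here and below, the midpoint of a strongest row is that of its part inside the domain, unless the whole row is named.

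Longer domains held NELF more often, over a smaller share of their length. Of the 223 domains under 10000 bp, 60.5% and 61.4% held a NELFE row and 60.5% and 55.6% a NELFB:HA row. Of the 122 domains of 20000 bp or more, the shares were 86.1% and 86.9% for NELFE and 85.2% in each NELFB:HA library. The covered share went the other way, from 25.3% and 25.7% to 13.7% and 15.4% in NELFE. The median width of the strongest NELFE row was 2955 and 2910 bp in the shortest class and 3247 and 3407.5 bp in the longest.

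NELF rows lay towards an end of the domain. The midpoint of the strongest row fell in the outer 20% at either end in 63.1% and 62.5% of the domains with a NELFE row, and in 62.4% and 61.1% of those with a NELFB:HA row. Midpoints spread evenly along a domain would put 20% in the outer part at each end. The middle of the domain was poorer: the step from 50% to 60% of the length held 4.14% and 3.57% of the strongest NELFE rows, whereas the step from 10% to 20% held 18.7% and 19.3%.

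The subunits were compared over their libraries. NELFB:HA rows were present in 69.2% ± 1.17 of domains (SD, n = 2) and NELFE rows in 71.3% ± 0.361 (SD, n = 2). The difference of -2.11 percentage points gave p = 0.333 in an exact permutation test (two-sided), which 2 against 2 libraries cannot go below, and 0.444 after adjustment over 4 measures. The number of rows per domain was 0.833 ± 0.0316 and 0.893 ± 0.00271, the covered share 19.2% ± 0.198 and 18.9% ± 1.04, and the outer 20% held 61.8% ± 0.910 and 62.8% ± 0.445. None of the 4 measures could pass a threshold under that smallest p in this design. By domain, 7 held NELFE in both libraries and NELFB:HA in neither, and 0 the reverse.

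Against shorter SPT5 rows, NELF covered less of the domains and lay nearer their ends. The comparison sets were 1120 mid-length rows (3000 to under 8000 bp) and 2540 short rows, each with a q-value of 0.01 or less and a partner of the same length class and q-value in replicate 1. NELF rows covered 19.1% ± 0.630 of domain length and 51.2% ± 1.95 of mid-length rows (SD, n = 4 NELF libraries). The outer 20% at either end held the strongest NELF row in 62.3% ± 0.842 of domains and in 17.7% ± 1.31 of mid-length rows. Both differences, -32.1 and 44.6 percentage points, had the same sign in 4 of 4 libraries. The strongest NELF row had a median width of 2433 to 2835 bp in mid-length rows, so it filled a larger share of them and lay nearer their middle. The split by length thus favours both signs, and the differences are a description with no test.

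The share of regions with NELF depended on the strength asked of SPT5. All 783 domains held a NELF row in 70.2% ± 1.41 (SD, n = 4 libraries) and mid-length rows in 96.4% ± 2.14, a difference of -26.2 percentage points (exact two-sided sign-flip permutation p 0.125, the smallest that 4 libraries allow). The mid-length set required a q-value and the domains did not. Among the 487 domains with an SPT5 q-value of 0.01 or less in both lists, a choice made after seeing the data, NELFE rows were present in 96.7% and 96.5% and NELFB:HA rows in 96.1% and 95.1%. The difference from mid-length rows was then -0.308 percentage points (exact sign-flip permutation p 0.75). Rows per region turned from a difference of -0.119 over all domains to 0.225 in these 487, whereas the covered share and the outer 20% kept their direction at -25.7 and 42.7 points.

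**Figure D2:**
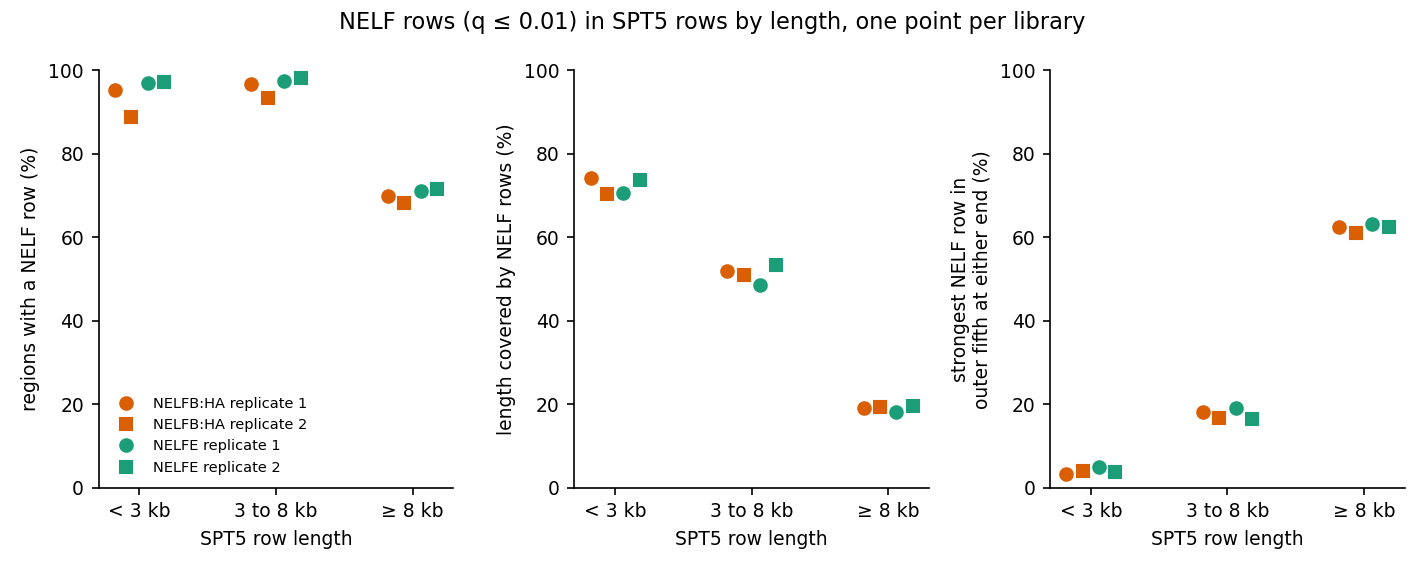
NELF rows in SPT5 rows by length class (x axis), with 1 point per NELF library: share of regions with a NELF row, share of length covered and share with the strongest row in the outer 20% at either end (y axes, %). The long class stands at 61.1% to 63.1% in the right panel and the mid-length class at 16.5% to 19.2%; only the 2 shorter classes were held to an SPT5 q-value of 0.01 or less.

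Placed on genes, many domains held a start that NELF marked. RefSeq start sites were listed for 16400 of 20598 protein-coding genes and for none on chromosome 18, so the 760 domains elsewhere were examined. A listed start lay in 462 of them (60.8%). The share was 74.8% in mid-length rows, and 81.3% in the domains with an SPT5 q-value of 0.01 or less in both lists. In 395 domains the start of the gene with the largest overlap lay inside, which gave the domain a direction. SPT5 reached a median of 1927 bp upstream and 10709 bp downstream of that start, and 363 of the 395 extended further downstream. Taking the gene with the largest overlap favours that direction, so these lengths are a description. The whole gene lay in 216 domains, and 235 ended beyond the annotated 3′ end, by a median of 4814 bp.

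In these 395 domains NELF lay within a few kilobases of the start in most members, while SPT5 continued. At the start itself, NELFE rows covered 95.4% and 95.7% of the domains, NELFB:HA rows 94.9% and 92.4%, and SPT5 rows with a q-value of 0.01 or less 91.6% and 94.7%. At 5 kb downstream, NELFE covered 7.09% and 8.10%, NELFB:HA 8.61% and 9.62%, and SPT5 80.5% and 89.9%. At 10 kb downstream, NELFE covered 5.32% and 6.84%, NELFB:HA 6.08% in each library, and SPT5 48.6% and 57.0%. With rows of any q-value, 25.6% and 27.6% of the domains were covered at 5 kb in NELFE and 29.4% and 40.8% in NELFB:HA. In SPT5 the shares were 92.9% and 94.9%. At 10 kb upstream of the start, such rows covered 18.2% and 21.8% in NELFE and 29.1% and 37.5% in NELFB:HA. In SPT5 they covered 39.5% and 23.5%. With these rows, the NELFB:HA shares at 5 kb were thus near those upstream, and the NELFE shares were somewhat higher. The SPT5 extent follows in part from the rule, which asked for 8 kb, so only the NELF values bear on position. The strongest NELFE row lay within 1000 bp of the start in 76.6% and 74.6% of the oriented domains with a row, and the strongest NELFB:HA row in 72.4% and 68.0%. The midpoint of the strongest row's part inside the domain, also used for these shares, lay a median of 231.5 and 270.5 bp downstream of the start in NELFE. In NELFB:HA it lay 272.25 and 367.5 bp downstream. A row running past the domain's upstream edge is thereby placed further downstream. The first 20% of the domain, in the direction of transcription, held the strongest NELFE row in 56.9% and 57.8%, and the last 20% held it in 5.45% and 5.44%.

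**Figure D3:**
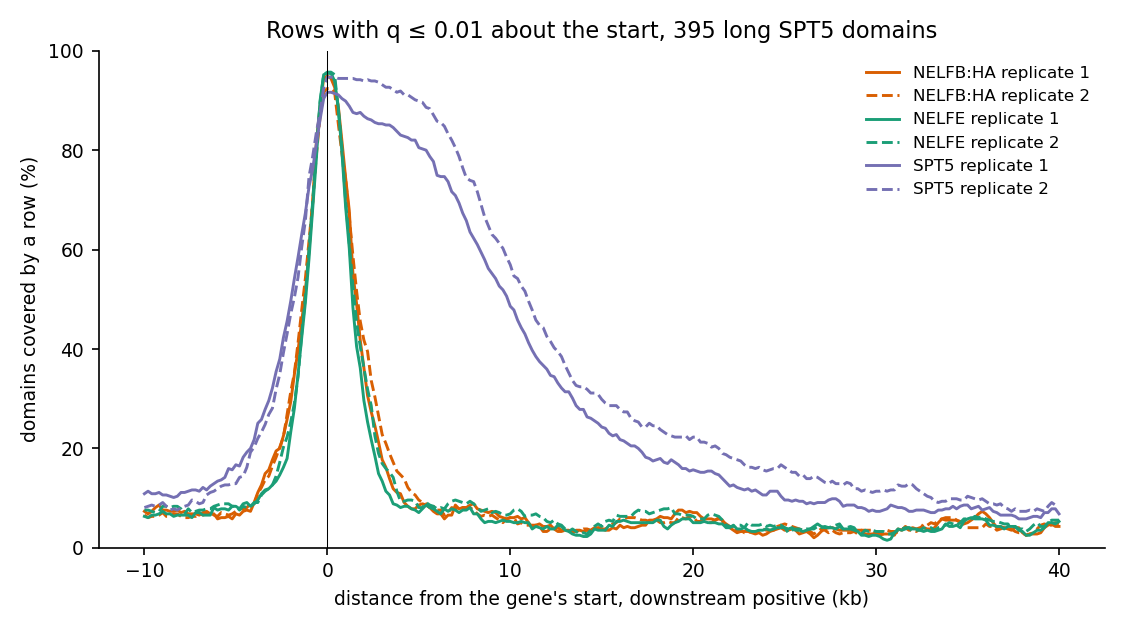
Share of the 395 oriented domains covered by a row with a q-value of 0.01 or less (y axis, %) by distance from the gene's start (x axis, kb, downstream positive), with 1 line per library. The 4 NELF lines peak at the start, between 92.4% and 95.7%, and stand at 7.09% to 9.62% at 5 kb, where the SPT5 lines stand at 80.5% and 89.9%.

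Domains with several NELF rows held several starts more often. Of the 128 and 125 domains outside chromosome 18 with 2 or more NELFE rows, 53.9% and 57.6% held listed starts of 2 or more genes. Of the domains with 1 NELFE row, 24% and 22.8% did. For NELFB:HA the shares were 58.9% and 65.9% against 24.2% and 24.9%. Domain length was not held fixed in this comparison. NELFE rows per domain rose from 0.731 and 0.740 under 10000 bp to 1.24 in each library at 20000 bp or more. The outermost NELF rows of such a domain lay a median of 8013.5 to 8385.5 bp apart in the 4 libraries. Of all NELF rows in domains, 58.4% to 62.2% lay within 1000 bp of a listed start, close to the 60.3% to 64.0% of all NELF rows outside chromosome 18. Those near a start in domains had a higher median fold than the rest in each library (7.63 against 5.07 in NELFE replicate 1).

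Among the 5 longest, domains covered Rif1, a regulator of replication timing and DNA repair, the Rbm4 cluster, Esrrb and Dhx9. Rif1 lay whole in a domain of 64638 bp with 1 NELF row in each library, of folds 7.97 and 5.58 for NELFB:HA and 6.72 and 11.1 for NELFE. The domain of 58742 bp over the RNA-binding protein genes Rbm4b, Rbm4 and Rbm14 (with the read-through model Gm21992) held 3 NELF rows in each of the 4 libraries and the listed starts of 4 genes. The Dhx9 domain, chr1:153442685-153488070, reached 410 bp upstream and 44975 bp downstream of the start, 13071 bp beyond the 3′ end. Its replicate 1 row was 53686 bp, the longest in that list among members. Dhx9 held 1 NELF row in each library, of folds 6.06, 4.80, 9.85 and 8.78 (NELFB:HA replicates 1 and 2, NELFE replicates 1 and 2). In each library the midpoint of the row's part inside the domain lay within 1926 bp of the start.

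Esrrb, an orphan nuclear receptor of the pluripotency network, departed from that layout. Its domain of 55117 bp (chr12:86463273-86518389) lay inside the gene and began 41629 bp downstream of the nearest listed start. It held 4 and 3 NELFE rows, and 2 NELFB:HA rows in each library. The strongest rows had folds of 3.99 and 5.87 for NELFE and 3.52 and 2.72 for NELFB:HA, low beside Rif1. No listed start lay in the domain.

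The other domains with the most NELFE rows held the starts of 1 to 4 listed genes. The Senp3 and Eif4a1 domain (23944 bp, starts of 4 listed genes; Eif4a1 encodes the translation initiation helicase) held 3 NELFB:HA rows in each library and 3 and 4 NELFE rows. The domain of Chaserr, a long noncoding RNA next to the chromatin remodeller gene Chd2, held 1 listed gene start, 3 and 2 NELFB:HA rows and 3 NELFE rows in each library. Chd2 also overlapped this domain, with 8.08% of its length, but had no listed start, so its start could not be counted. The Trim28 domain (chr7:13022820-13039251), whose promoter is printed above, held 3 rows in each of the 4 libraries and the starts of Trim28, Gm31649, Chmp2a and Ube2m. The strongest Trim28 row, by the midpoint of its part inside the domain, lay within 282.5 bp of the start in every NELF library. Its folds were 7.45, 7.0, 9.36 and 10.4.

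The highest NELFE folds were found at Pcna, Eif4g2, Prdx1, Hnrnpk and at Rplp1, a ribosomal stalk protein gene next to Gm35058. At Rplp1 the NELFE folds were 17.9 and 14.3 and the NELFB:HA folds 11.8 and 10, from the Gm35058 domain. Pcna had NELFE folds of 19.6 and 17.3 and NELFB:HA folds of 8.15 and 8.84, in a domain of 9080 bp that held 2 NELF rows in each library. Eif4g2, a translation initiation factor gene, had NELFE folds of 13.8 and 19.9 and NELFB:HA folds of 13.1 and 9.57, from 1 row in each library. Prdx1 had NELFE folds of 21.6 and 10.8 and NELFB:HA folds of 8.96 and 11.1. Hnrnpk had NELFE folds of 14.3 and 18.1 and NELFB:HA folds of 12.1 and 8.71, and its 2 NELF rows per library stood at the start and near the far end, where 2210016F16Rik starts. In SPT5 these domains had folds of 2.56 to 4.77 in replicate 2.

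The 212 domains without NELF were weaker in SPT5 and lay further down their genes, away from the start. Their median SPT5 fold was 1.98 in replicate 2 and 2.1 in replicate 1, against 2.86 and 3.05 in the 530 domains with NELF in all 4 libraries. An SPT5 q-value of 0.01 or less in replicate 2 was found in 10.4% of the former and 97.4% of the latter. Weak NELF rows of any q-value lay in 195 to 210 of the 212, with median strongest folds of 1.76 to 1.93. Such rows are common: each NELF library had 197925 to 436847 of them, covering 7.45% to 22.2% of chromosomes 1 to 19. How often other stretches as long as the 212 hold one was not counted, so their presence is no sign of NELF there. A listed start lay in 21 of 204 (10.3%) outside chromosome 18, against 431 of 516 (83.5%). Where the gene's start was listed, 169 of 179 lay downstream of it, at a median distance of 14399 bp. That upstream start carried a NELFE row in 155 and 157 of the 169 and a NELFB:HA row in 152 and 149. Among the domains with NELF in all 4 libraries, 47 lay downstream of such a start. It carried a NELFE row in 33 and 35 of these and a NELFB:HA row in 34 and 30. Of all listed protein-coding genes, 44.2% had a NELFE row at the start in both libraries. The genes were long, with a median of 26449 bp against 14157 bp, while the share of domains ending beyond the 3′ end was much the same, at 113 of 179 (63.1%) and 265 of 429 (61.8%).

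Some of these domains lay beside a stronger SPT5 row. Another row of replicate 2 with a q-value of 0.01 or less lay within 2000 bp, on either side, of 69 of the 212 (32.5%) and of 73 of the 530 (13.8%), counts chosen after seeing the maps. The longest without NELFE lay over Jarid2, Safb2, Suz12, Fubp1 and Dstn. Jarid2 and Suz12 encode subunits of the Polycomb complex PRC2. The Jarid2 domain of 36192 bp had SPT5 folds of 1.97 and 1.96, held 0 NELF rows in each library and began 13949 bp downstream of the gene's start. The Suz12 domain of 30597 bp had folds of 1.95 in replicate 2 and 3.18 in replicate 1, held 0 NELF rows and began 4839 bp downstream of the start. At both genes a stronger SPT5 row and NELF rows of all 4 libraries stood at the start, outside the domain. At Jarid2 that row is itself a domain, of 16731 bp, with an SPT5 fold of 2.61 in replicate 2.

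**Figure D4:**
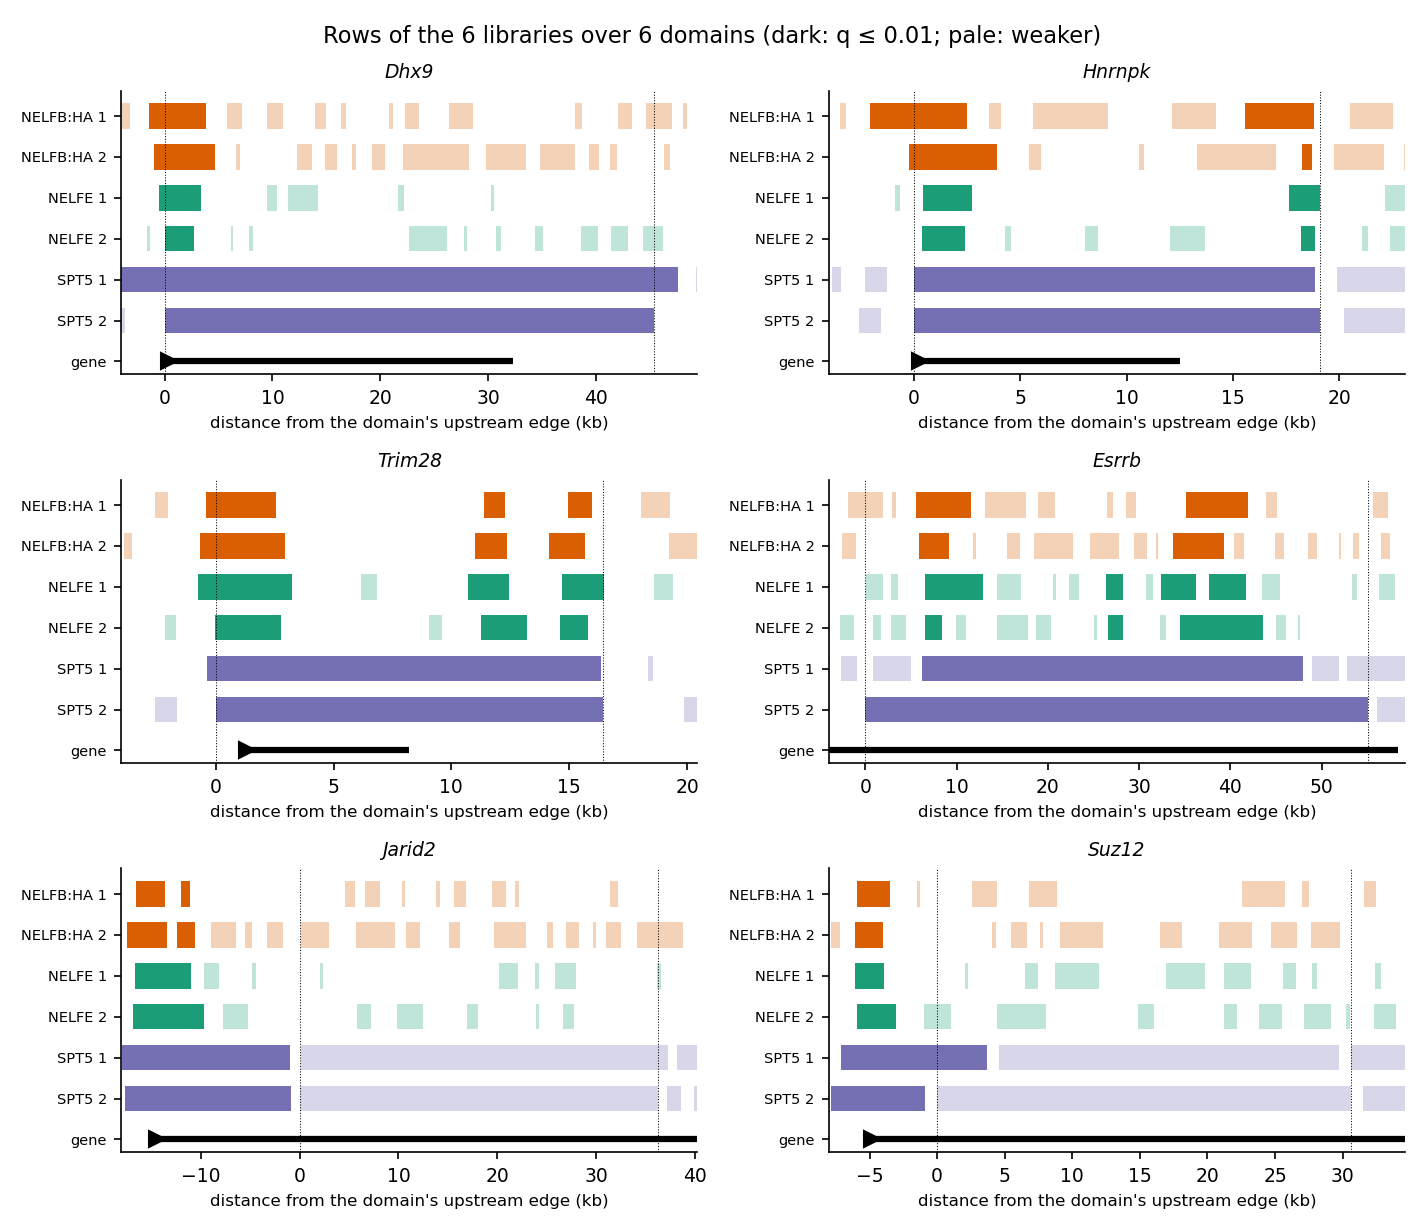
Rows of the 6 libraries over 6 domains by distance from the domain's upstream edge (x axis, kb, in the direction of transcription); dotted lines bound the domain, dark bars have a q-value of 0.01 or less, pale bars are weaker, and the black bar is the gene with its start as an arrowhead. Dark NELF bars stand at the starts of Dhx9, Hnrnpk and Trim28, inside the gene at Esrrb, and upstream of the domain at Jarid2 and Suz12, whose domains hold 0.

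Some genes were split over several domains. Rbpj, the DNA-binding effector of Notch signalling, was the largest-overlap gene of 4 domains, and only the one at chr5:53553854-53572749 held NELF, with folds of 3.69 and 3.20 for NELFB:HA and 4.41 and 5.04 for NELFE. Wdr1, an actin-disassembly cofactor gene, had 3 domains, of which 1 held NELF (folds 5.45, 6.76, 8.07 and 9.55 in the same order). Jade1, Ppp4r3a and Enah had 3 domains each with NELF rows in 1. In all, 63 genes were the largest-overlap gene of 2 or more domains, and the 758 domains that overlapped a gene had 689 distinct largest-overlap genes.

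Genes that start in a domain were short. Of the 16400 protein-coding genes with a listed start, 578 (3.52%) started in a domain and 7245 (44.2%) had a NELFE row within 1000 bp of the start in both libraries. Of those 7245, 538 (7.43%) started in a domain, and 93.1% of the 578 had NELFE at the start. The median gene length was 10055.5 bp for the 578, 24705 bp for genes with NELFE at the start outside a domain and 17237.5 bp for all.

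Of the gene lists, RNA processing and translation had the highest shares of members under a domain. Over all 20598 protein-coding genes, 1075 (5.22%) overlapped a domain. The lists were chosen with results of these data known, so their counts are descriptions. Of 24 RNA-processing genes, 21 overlapped a domain. They included the splicing regulators Srsf1, Srsf2, Srsf3, Srsf5, Srsf6 and Srsf7, the hnRNP genes Hnrnpa1, Hnrnpa2b1, Hnrnpu and Hnrnpab, and the helicase gene Ddx5. Srsf3 lay whole in a domain of 19881 bp with SPT5 folds of 3.79 and 3.82 and NELF folds of 12, 12, 15.1 and 16.7 (NELFB:HA replicates 1 and 2, NELFE replicates 1 and 2). Ddx5 had SPT5 folds of 4.26 and 4.72 and NELF folds of 12.6, 13.1, 12.3 and 17.8 in the same order. The main domains of Srsf11, Ddx17 and Son held 0 NELF rows.

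Of 21 genes of translation and ribosome biogenesis, 16 overlapped a domain. Eef1a1, the elongation factor that delivers aminoacyl-tRNA, had the highest SPT5 folds of the list, 6.89 in replicate 2 and 6.86 in replicate 1. Its NELF folds were 9.72 and 8.05 for NELFB:HA and 10.3 and 12.3 for NELFE. Ncl, which encodes nucleolin, had SPT5 folds of 3.64 and 3.71 and NELF folds of 13, 12, 11.4 and 14.6. Nop56 and Nop58, core proteins of box C/D small nucleolar ribonucleoproteins, each lay in a domain with 2 NELF rows in every NELF library. Of the 16, 15 held NELF in all 4 libraries and Eif5b in none.

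Pluripotency genes overlapped domains in 16 of 30 cases: Sox2, Nanog, Klf2, Klf4, Esrrb, Tfcp2l1, Tbx3, Zfp42, Dppa5a, Tdgf1, Lin28a, Sall4, Tet1, L1td1, Fgf4 and Trim28. Sox2, a partner of the core factor OCT4, lay whole in a domain of 20255 bp with SPT5 folds of 3.23 and 3.31 and NELF folds of 4.95, 3.44, 4.54 and 4.73. Nanog lay in a domain of 11370 bp with SPT5 folds of 2.24 and 2.26 and NELF folds of 2.51, 2.63, 3.59 and 4.50. The midpoint of its strongest NELF row lay at -4196.5, -4640.5, -4435 and -4149.5 bp from the Nanog start (negative is upstream), unlike most domains with a start inside. Klf2 and Klf4, Krüppel-like factors of the naive state, had higher NELF folds, of 6.15, 8.82, 7.28 and 5.49 at Klf2 and 7.20, 8.28, 5.74 and 7.20 at Klf4. Zfp42, the gene of REX1, lay in a domain of 30000 bp with 1 NELF row in each library. L1td1 was the only one of the 16 whose main domain held 0 NELF rows in all 4 libraries. Pou5f1, which encodes OCT4, overlapped no domain.

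Stress, cytoskeletal and cell-cycle genes were also present. Of 18 heat shock and chaperone genes, 11 overlapped a domain, among them Hsp90ab1 (SPT5 folds 4.2 and 4.26) and Hspa8 (4.78 and 5.41), the constitutive HSP90 and HSP70 genes. Of 18 cell cycle and p53 genes, 11 did, with Ccnb1 (cyclin B1) at NELF folds of 10.3, 10.8, 10.3 and 8.86 and Trp53 (p53) at 4.58, 4.08, 6.20 and 5.86. Of 15 cytoskeleton and glycolysis genes, 7 did, and Actg1, a cytoplasmic actin gene, had SPT5 folds of 6.19 and 6.51. Of 22 immediate-early and FGF-ERK feedback genes, 7 did, among them Junb, Jund, Ier2, Dusp6 and Mycn. Of 25 chromatin genes, 7 did, and Brd2, a bromodomain protein gene, had NELF folds of 11.6, 9.16, 11.5 and 15.1. Of 11 genes on a list of long noncoding RNAs, 4 did: Malat1, Neat1, Gas5 and Snhg3. The share over all long noncoding RNA genes was 1.22%. Malat1, a nuclear speckle RNA, had SPT5 folds of 6.26 and 6.14.

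Of 25 genes of the pausing and elongation machinery, 1 overlapped a domain (4%), near the 5.22% of all protein-coding genes: Aff4, a scaffold gene of the super elongation complex, with 8.71% of its length in it. All 22 of these genes with a listed start had a NELFE row there in both libraries, against 44.2% of all listed protein-coding genes. Of 20 lineage regulators and of 11 fibroblast genes 0 overlapped a domain, counts too small to stand apart from the 5.22% of all genes. NELFE stood at the listed start in both libraries in 2 of 13 lineage regulators and 0 of 5 fibroblast genes, to be set beside the 44.2%. Over all lists, 100 genes outside chromosome 18 lay under a domain. Counting only the main domain of each gene, 86 held NELF in all 4 libraries and 11 in none. Jarid2, Son and Hspa4 are among those 11, although each had 2 domains and a listed start in a domain.

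**Figure D5:**
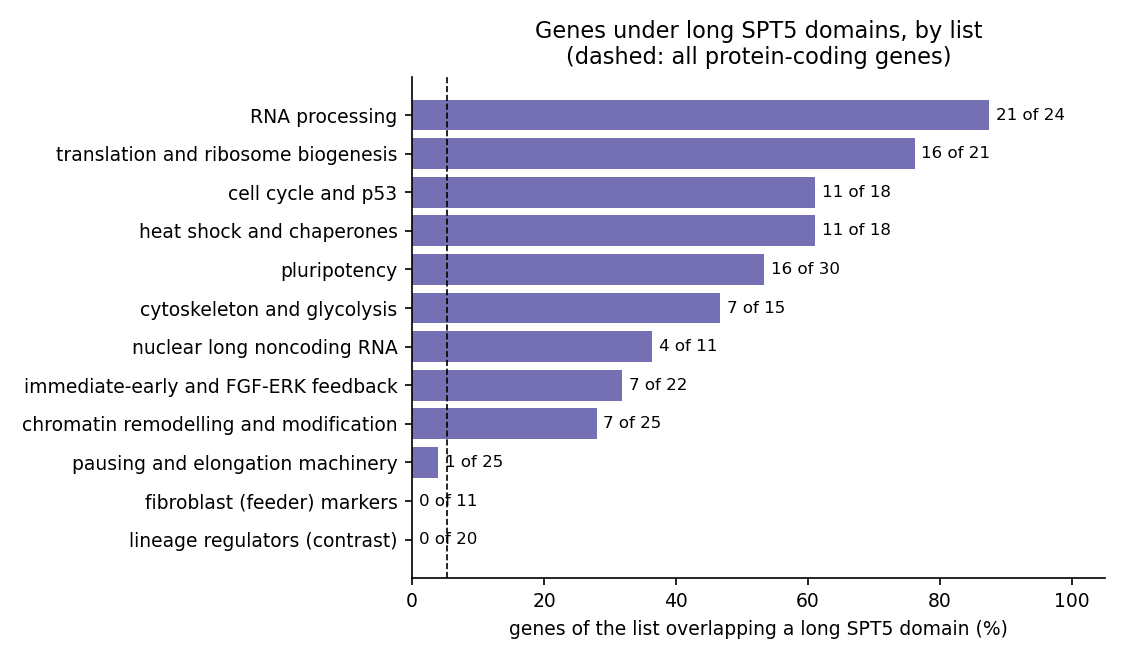
Share of the genes of each list that overlap a long SPT5 domain (x axis, %), with counts at the bar ends and the share of all protein-coding genes, 5.22%, as a dashed line. RNA-processing genes stand highest with 21 of 24, and the lineage regulators and fibroblast genes stand at 0.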

How the data were processed

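The authors called peaks with MACS 2.1.1.20160309 on each library against an input, in broad mode with p-value cutoffs of 0.01 and 0.1, per the file headers. Bowtie2, deepTools, MACS2 and build mm10 are named in the submitters' processing notes, and read filters are not given in the sources used here. Per the file headers, each deposited row has a mean pileup signal, a fold enrichment (a ratio to the local background), a −log10 p-value and a −log10 q-value. The headers say that q was not calculated, but the deposited q-value column holds values and was used. Replicates were not pooled.

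NELF rows were those with a q-value of 0.01 or less overlapping a domain by 1 bp or more. Libraries were compared by exact permutation or sign-flip tests with Benjamini-Hochberg adjustment over 4 measures. Genes and starts are RefSeq on GRCm38.p6, the build of mm10. The members and gene lists were chosen with earlier results of these data known. Named domains were the 5 longest, the 5 of highest NELFE fold, the 5 with most NELFE rows, the 5 longest without NELFE, the 3 on each side of the threshold, and list genes under a domain, apart from chromosome 18; 1 of the 5 longest is not reported here. Python 3.11.15, pandas 2.3.3, NumPy 2.4.6 and matplotlib 3.10.9 were used, and the counting functions were tested on simulated data. Alternatives were other lengths, q-values, overlaps, start windows and left-out libraries.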

Additional observations from a re-analysis of the deposited data

How the results depend on the processing

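The number of domains was 783, and it moved to 1370 at 6000 bp, 471 at 10000 bp, and 487 with a q-value of 0.01 or less in both SPT5 lists. The long rows of the remaining list numbered 1153 without SPT5 replicate 1 and 1531 without SPT5 replicate 2. For the share of domains with a NELF row, the rows per domain, the covered share and the share in the outer 20%, the values were as follows, in that order. Counting NELF rows of any q-value, they were 98.3%, 2.92, 33.6% and 56.1% for NELFE, and 99.7%, 3.34, 41.9% and 56.1% for NELFB:HA. Rows of any q-value covered 7.45% and 8.10% of chromosomes 1 to 19 in NELFE and 14.5% and 22.2% in NELFB:HA. At a NELF q-value of 1e-05 or less, the values in domains were 68.8%, 0.822, 17.6% and 63.7% for NELFE, and 64.7%, 0.742, 17.0% and 62.8% for NELFB:HA. With the midpoint required inside, they were 69.9%, 0.865, 18.6% and 61.6% for NELFE, and 66.7%, 0.799, 18.8% and 60.3% for NELFB:HA. In domains of 10000 bp or more, they were 75.4%, 0.956, 17.5% and 69.0% for NELFE, and 73.6%, 0.899, 17.8% and 68.2% for NELFB:HA. With the bounds of SPT5 replicate 1, they were 68.5%, 0.852, 18.8% and 58.6% for NELFE, and 66.8%, 0.796, 19.1% and 59.4% for NELFB:HA. In domains with a q-value of 0.01 or less in both SPT5 lists, added after seeing the data, they were 96.6%, 1.24, 25% and 61.1% for NELFE, and 95.6%, 1.18, 26.0% and 59.7% for NELFB:HA. Rows per region, long minus mid-length, reversed from -0.119 to 1.81 with NELF rows of any q-value and to 0.225 with the SPT5 q-value required, and the share of regions with a NELF row shrank from -26.2 to -0.865 points in the former and -0.308 in the latter (exact sign-flip permutation p 0.75), where the libraries differed in sign. The covered share and the outer 20% kept their sign in every alternative, which the split by length favours. The cause was not tested.

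NELFB:HA minus NELFE, in the same order of measures, ranged from -3.19 to -1.02 points, -0.0805 to -0.0396 rows, -0.352 to 0.845 points and -1.38 to -0.721 points without either replicate number, so the sign of the covered share rests on replicate 1. With NELF rows of any q-value it reversed to 1.4 points, 0.427 rows and, for the outer 20%, 0.0420 points, and the covered share reversed to -0.562 points at a q-value of 1e-05. The replicate numbers gave no sign of pairing in the rank differences (correlation -0.0531 over 530 domains). That value cannot tell whether same-numbered libraries share a culture, which no label states. With the replicate block the differences were -2.11 points, -0.0600 rows, 0.247 and -1.05 points, with no call to change.

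By the midpoint of the whole row, 64.7% of strongest NELFE rows and 61.7% of strongest NELFB:HA rows lay within 1000 bp of a listed start. The shares were 45.1% and 42.4% within 500 bp and 74.1% and 74.1% within 2000 bp. Of 141 alternatives, 79 were counted as unchanged. This meant within the spread for shares, in the same direction for differences, or within a set ratio for counts. The outcome was fixed in advance where a library was left out of an antibody's mean, and for the replicate block. The count of 79 is therefore no measure of robustness. With 2 libraries an antibody and peak lists in place of reads, depth at single bases was not examined, and a domain's ends rest on the authors' weak cutoff.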

Other observations

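Small nucleolar RNAs, which guide the modification of ribosomal RNA and are mostly cut from introns of host genes, lay under the domains at 145 of 1275 annotated genes (11.4%), against 5.22% of protein-coding, 5.07% of microRNA and 1.22% of long noncoding RNA genes; the classes were chosen after seeing the data. They fell in 65 domains, so genes of a cluster share a domain. The Gas5 domain (chr1:161033507-161045684) held 8, with SPT5 folds of 5.59 and 5.69 and 1 NELF row in each library, of folds 8.80 and 6.60 for NELFB:HA and 7.64 and 10.4 for NELFE. The Taf1d domain held 6, and the Rpl13a, Rpl4, Eif4a2 and Nop56 domains held 5 each.

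Outside genes, 23 domains lay on chromosomes other than 18, at a median of 12977 bp from the nearest protein-coding or long noncoding RNA gene. NELF rows of all 4 libraries lay in 13 of them and of none in 4. The domain at chr13:48527816-48546996, of 19181 bp, held the let-7 microRNA genes Mirlet7d, Mirlet7f-1 and Mirlet7a-1, with SPT5 folds of 3.31 and 3.53, NELFB:HA folds of 10.6 and 8.08 and NELFE folds of 8.76 and 15.2. A domain of 9904 bp lay 45074 bp from Klf4, with NELFB:HA folds of 2.73 and 2.42 and 2 NELFE rows in each library, of strongest folds 4.23 and 4.56. The domain at chr16:25522745-25531099 had SPT5 folds of 7.06 and 5.94, and a NELF row in NELFE replicate 1 only.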
